A study of Mus musculus with 12 samples.

Results

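The comparison is between proline-treated and untreated orthotopic lung tumour of the mouse, an orthotopic tumour being one grown in the organ it belongs to. It was chosen by the treatment label: 3 libraries labelled Proline were set against 3 labelled Model, which is 6 of the 12 libraries of the series. The Model group is the untreated tumour and the Proline group the tumour treated with the amino acid proline. The other 6 libraries are 3 of tumour treated with taurine and 3 of Control lung, which the series' description calls normal although its tissue label reads as the tumours' does. All sample names carry the mouse strain label C57. No dose, route, treatment time, age, sex or tumour cell line was given in the sources used here, and nothing states that the 3 libraries of a group came from separate animals, so p-values measure only the spread between these libraries, which may be technical. Both groups share the tumour and its site, and no vehicle treatment of the Model group is described in the labels. The series' description states that both amino acids were found to speed tumour growth, and the comparison asks which genes differ in the tumour under proline.

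Proline is a building block of proteins that mammalian cells make from glutamate through Aldh18a1 and the Pycr reductases, or from ornithine through Oat, and that they oxidise in mitochondria through Prodh and Aldh4a1. Collagens are rich in proline, which is hydroxylated by the P4ha enzymes before the triple helix forms. A tumour in the lung is a mixture of tumour cells, blood vessels, fibroblasts, macrophages and lymphocytes. T cells and natural killer cells release interferon gamma, which binds its receptor, induces the transcription factor Irf1, and switches on guanylate-binding proteins, immunity-related GTPases and the machinery that presents peptides on class I molecules. These are bulk libraries, in which more cells of a type and more RNA per cell cannot be told apart.

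The libraries held between 62579271 and 69456490 counts in the Proline and Model groups, and 23191 of 36254 genes passed the filter on low counts. Levels are given as CPM, counts relative to the scaled library total. Pearson correlation of log2 CPM over genes was 0.954 to 0.961 within Model, 0.947 to 0.965 within Proline and 0.942 to 0.960 between both, so libraries of 1 group were hardly more alike than libraries of different groups. The tumour identity of the libraries could be read from the oncofetal gene Hmga2, which stood at 422, 462 and 520 CPM in Model and 620, 564 and 508 CPM in Proline, against 0.0171 to 0.288 CPM in Control lung. Lung tissue markers stood far under Control in every tumour library. The summed level of 9 alveolar type 2 genes was 63.0 to 82.5 CPM in Model and 882, 63.4 and 63.0 CPM in Proline, against 25402 to 28209 CPM in Control. Proline 1 stood apart on this sum and on 12 endothelial genes, with 533 CPM against 248 to 300 CPM in the other 5 libraries. The sum of 7 club cell genes, another lung list, was 1.22, 247 and 3.57 CPM in Model. In Proline it was 207, 11.99 and 1.63 CPM, so Model 2 was raised on this list as well as Proline 1.

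Markers of tissues outside the lung also differed between libraries. The summed level of 14 liver genes was 306, 404 and 95.9 CPM in Model and 127, 104 and 95.4 CPM in Proline. For 12 kidney genes the sum was 15.1, 14.9 and 83.6 CPM in Model and 21.4, 8.46 and 16.4 CPM in Proline. Each Model library thus held a higher level of either liver or kidney transcripts than any Proline library. Skeletal muscle genes were summed to 1010, 191 and 61.0 CPM in Model and 10.9, 1350 and 982 CPM in Proline, with no order by group. Of 14 liver genes, 6 were at 0 in all 3 Proline libraries, among them Apob, which was at least 141-fold lower against a floor of 3 counts over the group, and Ttr. Results that move with these sums are given below with the sums beside them.

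**Figure D1:**
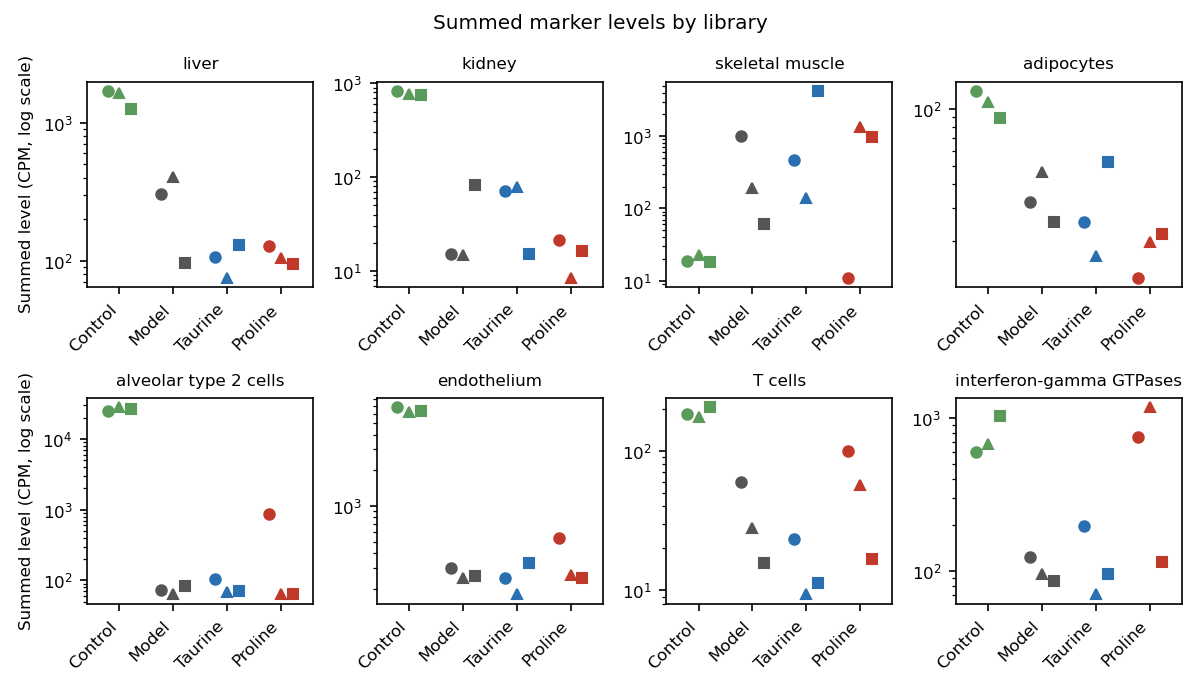
Summed level in CPM on a log axis of 8 gene lists in the 12 libraries, by group; circles, triangles and squares are libraries 1, 2 and 3 of a group. Among the tumour libraries, liver genes are highest in Model 1 and 2, kidney genes in Model 3 and Taurine 1 and 2, alveolar type 2 and endothelial genes in Proline 1, and the interferon-gamma GTPases in Proline 1 and 2.

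No gene was called between Proline and Model by edgeR's quasi-likelihood test at an adjusted p of 0.05, out of 23191 tested. Individual tests at an unadjusted p under 0.05 numbered 3106, or 13.4% of the genes, of which 1667 (7.19%) were higher and 1439 (6.20%) lower in Proline. The values of the 3 Proline libraries lay wholly above those of the 3 Model libraries for 2035 genes (8.77%) and wholly below for 2148 (9.26%). DESeq2 called 769 of 20323 genes with an adjusted p (3.78%), 484 of them (2.38%) higher and 285 (1.40%) lower. The median log2 fold change over all genes was 0.00. The smallest adjusted p was 0.0771, shared by Samd12, Entpd4b and Arc. Because no gene passed the main test, genes below are described as higher or lower by their values, not as changed.

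The 12 genes with the smallest p among those higher in Proline without overlap included 3 genes of the actin cytoskeleton. Actg1, the cytoplasmic gamma-actin, stood at 1334, 1436 and 1503 CPM in Model and 1990, 1910 and 1889 CPM in Proline. Cnn2, an actin-binding calponin, stood at 153, 174 and 185 CPM in Model and 260, 254 and 251 CPM in Proline. The 3 Proline libraries were close to each other for both genes and well above the highest Model library. The difference was 0.44 on the log2 scale for Actg1 (SE 0.07, adjusted p = 0.113). For Cnn2 it was 0.58 (SE 0.09, adjusted p = 0.113), and Tagln2, a transgelin that binds actin, stood at 0.44 (SE 0.08). Junb, a subunit of the AP-1 transcription factor, stood at 61.7, 57.3 and 84.3 CPM in Model and 141, 126 and 118 CPM in Proline, a log2 difference of 0.92 (SE 0.15, adjusted p = 0.113).

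Others of the 12 are genes of innate immune cells and of the cytotoxic response. Cd14, the co-receptor for bacterial lipopolysaccharide on monocytes and macrophages, stood at 37.6, 32.5 and 39.4 CPM in Model and 68.7, 66.3 and 51.7 CPM in Proline. Gpr35, a receptor found on macrophages and in the gut, stood at 5.94, 5.29 and 5.49 CPM in Model and 17.5, 14.2 and 11.2 CPM in Proline. Both genes were lowest in the third Proline library, without overlap with Model. The log2 difference was 0.77 for Cd14 (SE 0.12) and 1.36 for Gpr35 (SE 0.22), each with an adjusted p of 0.113. Gzmb, the granzyme that cytotoxic lymphocytes deliver into target cells, stood at 0.987, 0.832 and 1.86 CPM in Model and 21.4, 22.2 and 4.14 CPM in Proline, a log2 difference of 3.70 (SE 0.62). Cmpk2, a mitochondrial nucleotide kinase induced by interferon, stood at 2.67, 1.49 and 2.08 CPM in Model and 11.6, 11.8 and 4.56 CPM in Proline, a log2 difference of 2.16 (SE 0.37). G0s2, an inhibitor of fat breakdown, stood at 1.14 to 2.10 CPM in Model and 3.41 to 7.98 CPM in Proline. The remaining higher genes were the cyclophilin Ppid at 0.69, the nuclear import receptor Ipo7 at 0.37 and the G-protein subunit Gng5 at 0.32 on the log2 scale.

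The 12 genes lower in Proline were led by Entpd4b, a nucleotide-hydrolysing enzyme with a near-identical neighbour, Entpd4, with which reads may be shared. Entpd4b stood at 67.6, 72.7 and 64.0 CPM in Model and 41.4, 38.4 and 43.9 CPM in Proline, a log2 difference of −0.72 (SE 0.09, adjusted p = 0.0771). Trp53inp2, a nuclear protein that moves to autophagosomes and serves autophagy, stood at 58.4, 55.4 and 54.5 CPM in Model and 30.9, 37.8 and 40.2 CPM in Proline, a difference of −0.63 (SE 0.08, adjusted p = 0.0838). Stx17, the SNARE protein by which autophagosomes fuse with lysosomes, stood at 69.5, 69.9 and 66.2 CPM in Model and 55.6, 55.0 and 54.6 CPM in Proline, a difference of −0.32 (SE 0.06). Replicates of Stx17 lay within a few CPM of each other in both groups. Tgfbr3, the transforming growth factor beta co-receptor betaglycan, stood at 390, 421 and 379 CPM in Model and 286, 280 and 295 CPM in Proline, a difference of −0.47 (SE 0.08). The drug and nucleotide exporter Abcc5 differed by −0.49, the esterase Iah1 by −0.52, the cyclotransferase Ggact by −0.76 and the microtubule-associated kinase Dclk2 by −0.44, each without overlap. Drc3, a part of the motile cilium, stood at 2.13 to 2.90 CPM in Model and 1.07 to 1.35 CPM in Proline.

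Marco and a pair of liver and kidney enzymes complete the lower genes. Marco, a scavenger receptor of macrophages, stood at 42.0, 58.2 and 34.5 CPM in Model and 14.0, 20.4 and 15.6 CPM in Proline, a log2 difference of −1.43 (SE 0.26, adjusted p = 0.113). It is 1 of 8 alveolar macrophage genes listed, of which 4 had a log2 fold change above 0 and 4 below. Among the 8, 1 was higher and 1 lower without overlap, 12.5% each, near the 8.77% and 9.26% of all genes. Their median was 0.21. Pck1, the rate-limiting enzyme of gluconeogenesis, stood at 6.71, 17.6 and 13.1 CPM in Model and 0.713, 0.322 and 0.784 CPM in Proline, a difference of −4.35 (SE 0.63, adjusted p = 0.0838). Cyp2e1, a cytochrome P450 abundant in liver, stood at 8.82, 8.66 and 2.16 CPM in Model and 0.591, 0.307 and 0.827 CPM in Proline. The lower Cyp2e1 value of Model 3 goes with its lower liver sum. In the fit with a covariate for liver and kidney transcripts, the log2 difference of Pck1 was −3.59. That of Cyp2e1 was −1.21 (unadjusted p = 0.101), against −3.50 (SE 0.56) without the covariate, and that of Marco was −0.90 (unadjusted p = 0.068). Of the 24 genes, 21 kept an unadjusted p under 0.05 with this covariate, which 5.67% of all genes had, the exceptions being Cyp2e1, Marco and Ipo7. All 24 were called by DESeq2, at adjusted p between 5.26e-11 and 0.000227, 13 by voom, which called 0.0949% of all genes, and 19 by edgeR without Proline 3. Since the 24 were picked for small p in these libraries, these counts describe them and are no support.

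**Figure D2:**
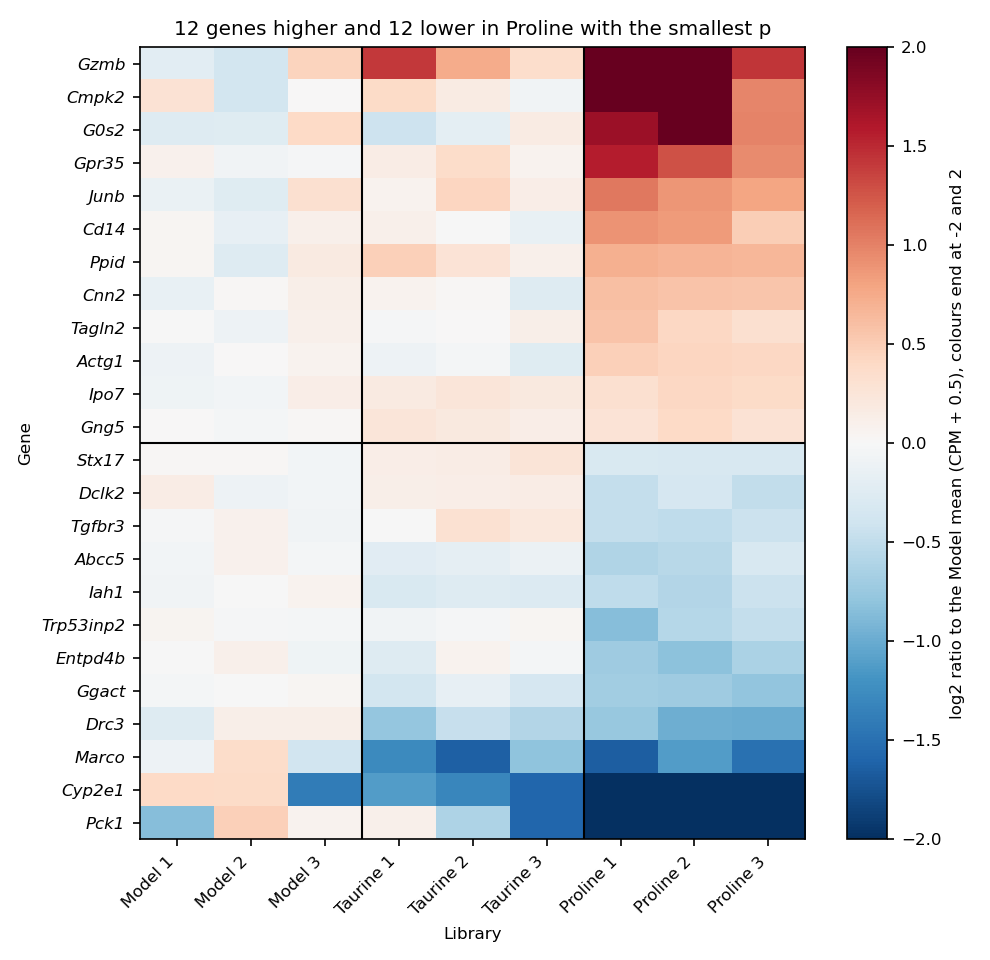
Log2 ratio of each library to the Model mean, after adding 0.5 CPM, for the 12 genes higher and the 12 lower in Proline with the smallest p, in the 9 tumour libraries; colours end at −2 and 2. The Proline columns are of 1 colour above and below the dividing line because the genes were chosen for that. The Taurine columns mostly are not, but Taurine libraries had no part in the choice. The colours are thus no support for a difference between the treatments.

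Some genes had no count in a whole group. Arc, an immediate early gene best known from neurons, had no count in the Model libraries and stood at 0.394, 0.384 and 0.813 CPM in Proline, at least 35-fold higher against a floor of 3 counts over the Model group. Gzme, a granzyme, had no count in Model and stood at 0.622, 0.737 and 1.07 CPM in Proline, at least 53.4-fold higher. Both were at 0 in no Proline library. Cxcl11 (at least 39-fold) and Ido1 (at least 29.5-fold), both targets of interferon gamma, and the cytokine gene Csf2 (at least 23.2-fold) had no count in Model but also none in 1 of the 3 Proline libraries. Eci3, a peroxisomal enzyme of fat oxidation found in liver and kidney, stood at 0.694, 0.846 and 0.742 CPM in Model and had no count in Proline, at least 51.0-fold lower. Samd12, whose role is not well known, stood at 0.216, 0.215 and 0.268 CPM in Model and 1.59, 1.04 and 1.11 CPM in Proline, a log2 difference of 2.41 (SE 0.30).

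Genes that respond to interferon were higher in Proline by most of their members, from Irf1 to the GTPases, antiviral genes and class I presentation. The ligand and its receptors come first in the pathway. Ifng, the interferon gamma gene, stood at 0, 0.129 and 0.268 CPM in Model and 0.5, 0.936 and 0.0428 CPM in Proline. The first and second Proline libraries were above all Model libraries and the third within their range, so the groups overlapped (adjusted p = 0.670). Ifngr2, a chain of its receptor, stood at 40.7, 42.6 and 45.5 CPM in Model and 50.2, 48.7 and 48.8 CPM in Proline, a log2 difference of 0.20 (SE 0.07, adjusted p = 0.276). Ifnar1, a chain of the type I interferon receptor, stood at 66.5 to 72.2 CPM in Model and 64.8 to 65.2 CPM in Proline, a difference of −0.09 (SE 0.10).

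Of 13 interferon signalling kinases and factors, 6 were higher without overlap (46.2%, against 8.77% of all genes) and none lower, with a median log2 fold change of 0.64. Irf1, a transcription factor induced by interferon, stood at 50.4, 46.2 and 55.6 CPM in Model and 105, 159 and 63.5 CPM in Proline. The third Proline library lay just above the Model range and the other 2 far above it. The log2 difference was 1.11 for Irf1 (SE 0.28, adjusted p = 0.195). Irf9, the DNA-binding subunit of the factor that acts at interferon-stimulated response elements, stood at 0.93 (SE 0.22) and Socs3, a feedback inhibitor of Jak kinases, at 0.64 (SE 0.12, adjusted p = 0.124). Jak1, the kinase itself, stood at 226 to 234 CPM in Model and 205 to 233 CPM in Proline.

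The interferon-gamma GTPases, which coat and rupture the compartments of intracellular microbes, differed by more than any other interferon list by median. Promoter sequences are shown for 4 of them, because the members moved together in the same libraries. Each is the 250 bases before the RefSeq start on its own strand (GRCm38.p6), and capitals mark the core of the interferon-stimulated response element (GAAANNGAAA) and of the gamma-activated site (TTCNNNGAA), both searched on both strands.
Gbp2, chr3:142620413-142620662, plus strand: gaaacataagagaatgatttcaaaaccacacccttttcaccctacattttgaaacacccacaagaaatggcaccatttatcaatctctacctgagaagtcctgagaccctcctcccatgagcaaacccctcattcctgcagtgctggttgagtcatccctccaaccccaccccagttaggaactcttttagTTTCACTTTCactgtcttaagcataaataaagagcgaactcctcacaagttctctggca
Gbp5, chr3:142496684-142496933, plus strand: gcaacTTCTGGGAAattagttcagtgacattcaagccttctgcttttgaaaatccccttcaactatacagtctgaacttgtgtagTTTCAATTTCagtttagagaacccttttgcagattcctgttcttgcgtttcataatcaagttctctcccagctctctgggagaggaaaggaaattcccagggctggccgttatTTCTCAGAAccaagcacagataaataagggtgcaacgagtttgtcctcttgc
Tgtp1, chr11:48992247-48992496, minus strand: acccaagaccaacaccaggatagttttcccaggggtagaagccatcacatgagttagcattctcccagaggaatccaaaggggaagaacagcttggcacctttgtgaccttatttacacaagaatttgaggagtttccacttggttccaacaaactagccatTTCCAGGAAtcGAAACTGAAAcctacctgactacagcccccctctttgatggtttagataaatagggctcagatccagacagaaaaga
Irgm2, chr11:58214727-58214976, plus strand: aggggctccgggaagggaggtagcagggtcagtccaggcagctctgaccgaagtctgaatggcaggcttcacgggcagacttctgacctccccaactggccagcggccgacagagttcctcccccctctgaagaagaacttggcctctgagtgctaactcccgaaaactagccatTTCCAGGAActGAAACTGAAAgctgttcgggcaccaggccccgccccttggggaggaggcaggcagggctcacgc

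A match to the first core begins 59 bases before the start in Gbp2, 165 in Gbp5, 77 in Tgtp1 and 64 in Irgm2. The second core matches 88 bases before the start in Tgtp1 and 75 in Irgm2, just upstream of the first core and without overlap with it, and 245 and 52 bases before the start in Gbp5. Of the 18 GTPases, 11 were found in the promoter table with 12 windows, and 10 windows (83.3%) held the first core against 2.98% of all 32851 windows. The second core was in 6 of the 12 windows (50%) against 7.02% of all. Windows of the 12 higher genes named above, of which 10 genes were found with 11 windows, held neither core. A match describes letters in a window and not a bound site.

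Of the 18 GTPases tested, 5 were higher in Proline without overlap and none lower, which is 27.8% against 8.77% of all genes. All 18 had a log2 fold change above 0, against 49.5% of all genes, from 1.68 to 5.17 with a median of 2.99, and 17 had an unadjusted p under 0.05, against 7.19% of all genes. Gbp2 stood at 21.0, 12.9 and 15.5 CPM in Model and 180, 288 and 18.4 CPM in Proline. Tgtp1 stood at 1.90, 1.85 and 1.14 CPM in Model and 18.5, 41.4 and 3.67 CPM in Proline. The first and second Proline libraries stood far above Model for both genes, while the third lay inside the Model range for Gbp2 and above it for Tgtp1. The log2 difference was 3.30 for Gbp2 (SE 0.82, adjusted p = 0.191) and 3.70 for Tgtp1 (SE 0.87, adjusted p = 0.179). Gbp3 stood at 2.81 (SE 0.65), Gbp5 at 2.98 (SE 0.77) and Irgm2 at 2.35 (SE 0.56), all without overlap. Gbp genes are related in sequence, and Tgtp1 and Tgtp2 are near-identical copies, so some reads may be shared.

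The 3 Proline libraries did not share this pattern to the same extent. The median log2 ratio of the 18 GTPases to the Model mean was 2.64 in Proline 1, 3.31 in Proline 2 and 0.12 in Proline 3, against −0.32 to 0.24 in the Model libraries. Their summed level was 124, 96.5 and 86.0 CPM in Model and 752, 1181 and 114 CPM in Proline, against 601 to 1030 CPM in Control lung. Without Proline 3, edgeR called 232 of 24476 genes (0.948%), 188 of them higher (0.768%) and 44 lower (0.180%). Among the calls were 15 of 18 GTPases, 14 of 18 class I genes, 16 of 32 antiviral genes and 7 of 13 signalling genes, but only 2 of 17 cytotoxic genes and none of the 19 chemokines and receptors, the 11 class II genes or the 16 T cell genes. Neither voom nor edgeR without Model 3 called a gene of the GTPase, class I, antiviral or signalling lists. Leaving out a library because of its values selects for difference, so these counts describe how much rests on Proline 3. The alveolar type 2 sum was 882 CPM in Proline 1, 63.4 CPM in Proline 2 and 63.0 CPM in Proline 3, and its part in the GTPase values was not tested.

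**Figure D3:**
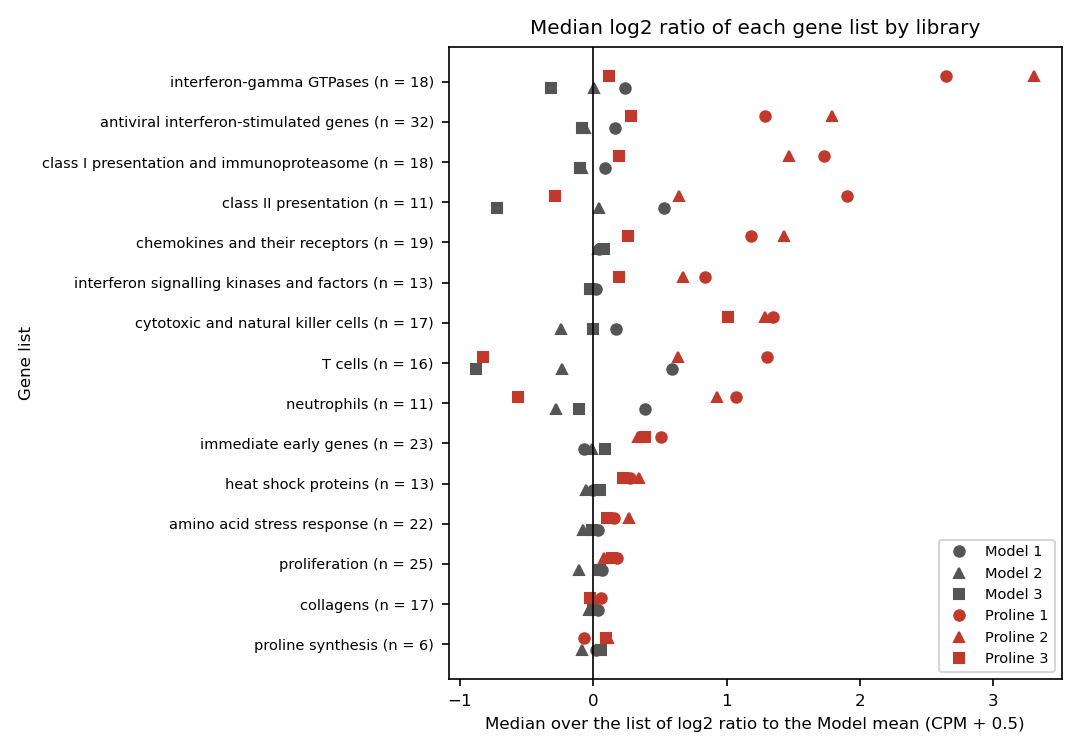
Median over each list of the log2 ratio to the Model mean, after adding 0.5 CPM, in each of the 6 libraries. For the GTPases, antiviral genes, class I presentation, chemokines and interferon signalling, Proline 1 and 2 lie to the right and Proline 3 near the Model libraries. For class II presentation Proline 1 alone lies far to the right, and Proline 2 at 0.64 is close to Model 1 at 0.53, while for immediate early genes and heat shock proteins the 3 Proline libraries lie together.

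Antiviral interferon-stimulated genes had 20 of 32 members higher without overlap (62.5%) and none lower, with a median log2 fold change of 1.35. All 32 lay above 0. Oasl2, a sensor-like protein of the oligoadenylate synthetase family, stood at 16.5, 15.2 and 12.3 CPM in Model and 49.2, 80.0 and 24.5 CPM in Proline. Zbp1, a sensor of left-handed nucleic acids that triggers necroptosis, stood at 5.43, 5.16 and 3.46 CPM in Model and 28.4, 46.3 and 7.92 CPM in Proline. In both, the third Proline library was the lowest of its group and still above Model. The log2 difference was 1.80 for Oasl2 (SE 0.38, adjusted p = 0.148) and 2.56 for Zbp1 (SE 0.52, adjusted p = 0.145). DESeq2 called 20 of the 32, against 2.38% of all genes, while voom and edgeR without Model 3 called none of them. The p200 family of interferon-inducible DNA-binding proteins had 7 of 10 members higher without overlap (70%, against 8.77% of all genes) and a median of 1.30. The p200 list was not among the planned lists and was added to them later. Its counts of members and of promoter windows are thus a description and no support. Ifi204, a member, stood at 24, 17.9 and 18.5 CPM in Model and 53.4, 61.2 and 25.9 CPM in Proline. Cgas, the enzyme that senses DNA in the cytosol, stood at 0.802 to 1.23 CPM in Model and 1.98 to 4.19 CPM in Proline, and Mlkl, the executioner of necroptosis, at 49.9 to 53.7 and 65.4 to 86.4 CPM. Of promoter windows of the p200 genes, 9 of 11 (81.8%) held the interferon-stimulated response element core. The share was 2.98% among all windows. It was 9 of 25 windows (36%) for the antiviral genes and 3 of 15 (20%) for the signalling genes. For class I genes it was 2 of 17 (11.8%), and for chemokines and their receptors 1 of 11 (9.09%). Some lists outside the interferon response had like shares, with 2 of 12 (16.7%) for collagen maturation and 2 of 16 (12.5%) for nuclear oxidative phosphorylation. Others had none, with 0 of 16 for collagens and 0 of 15 for heat shock proteins.

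**Figure D4:**
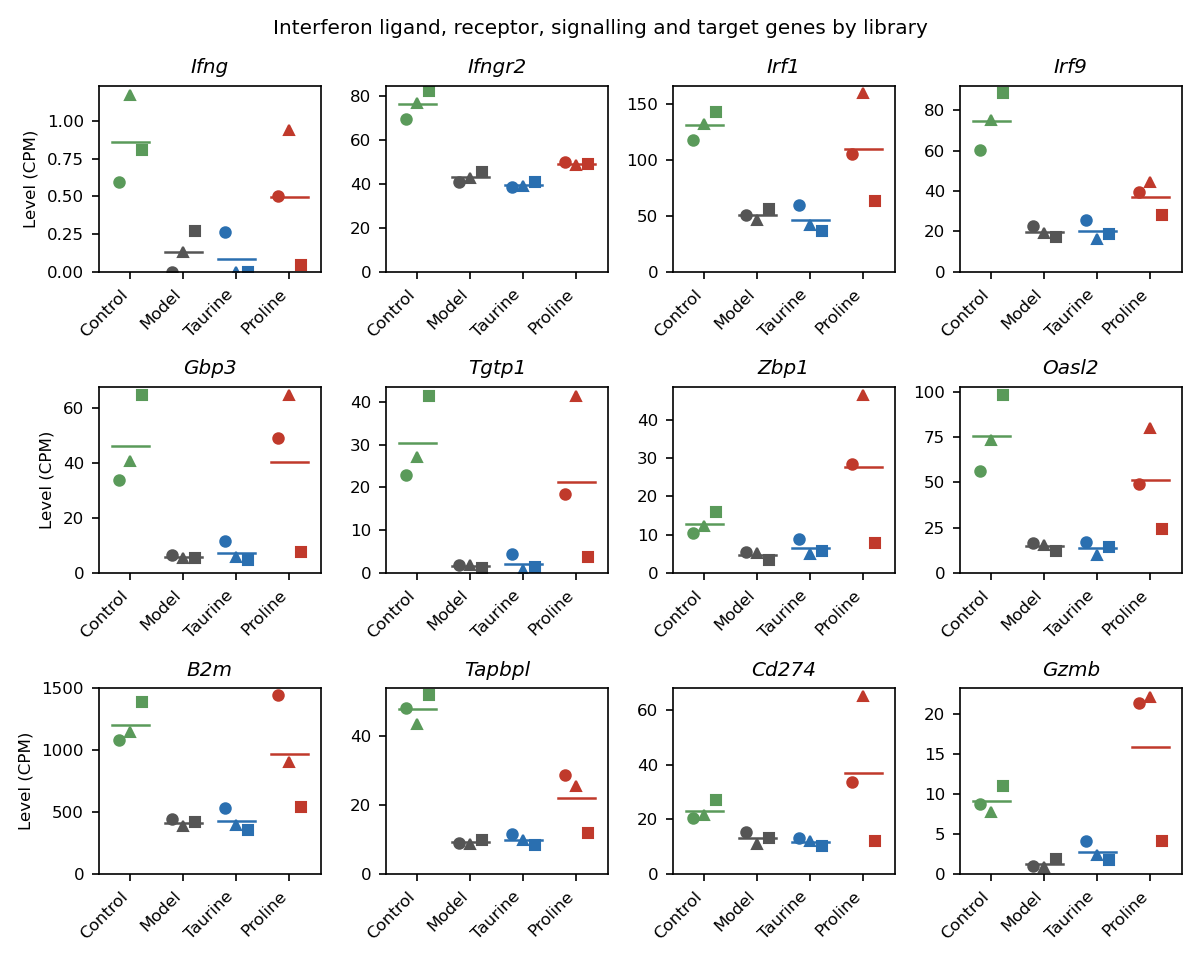
Level in CPM of 12 genes in the 12 libraries, by group; circles, triangles and squares are libraries 1, 2 and 3, and lines are group means. Proline 1 and 2 stand above all Model libraries in each panel, and Proline 3 stands nearer to Model in all panels but Ifngr2, inside its range for Ifng and Cd274.

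Class I presentation and the immunoproteasome had 11 of 18 members higher without overlap (61.1%) and none lower, against 8.77% and 9.26% of all genes. The median log2 fold change was 1.28. All 18 were higher with an unadjusted p under 0.05 by edgeR, against 7.19% of all genes. H2-K1, a classical class I heavy chain, stood at 226, 227 and 172 CPM in Model and 744, 453 and 241 CPM in Proline. B2m, the shared light chain, stood at 440, 388 and 415 CPM in Model and 1447, 907 and 542 CPM in Proline. Here the first library was the highest, and the third was again the lowest of the group. The log2 difference was 1.2 for H2-K1 (SE 0.34, adjusted p = 0.214) and 1.22 for B2m (SE 0.29, adjusted p = 0.179). Tapbpl, which edits the peptides on class I molecules, stood at 1.27 (SE 0.27, adjusted p = 0.148) and Psme1, a proteasome activator subunit, at 0.64 (SE 0.14, adjusted p = 0.148). Class I heavy chains are near-identical in stretches, so reads may be shared among them.

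Class II presentation differed from class I in its spread. None of 11 genes was free of overlap, while 8.77% of all genes were higher and 9.26% lower without overlap. The median of 1.08 came with 1.90 in Proline 1, 0.64 in Proline 2 and −0.29 in Proline 3. Cd74, the invariant chain that escorts class II molecules, stood at 116, 83.6 and 39.4 CPM in Model and 702, 144 and 64.9 CPM in Proline. Ciita, the master activator of class II genes, stood at 1.55 to 3.64 CPM in Model and 2.31 to 13.8 CPM in Proline. Proline 1 alone was far above Model for both genes, the same library that stood apart in alveolar type 2 and endothelial sums, and alveolar type 2 cells express class II genes. Whether those cells bear on the class II values was not tested. Without Proline 1 the class II median was 0.25.

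Chemokines and their receptors had 7 of 19 members higher without overlap (36.8%), none lower, and a median of 1.12. Cxcl9, which draws T cells that carry Cxcr3, stood at 2.34, 2.5 and 1.52 CPM in Model and 69.9, 32.5 and 3.42 CPM in Proline, a log2 difference of 4.06 (SE 1.24, adjusted p = 0.229). Cxcl10, with the same receptor, stood at 3.61 to 8.33 CPM in Model and 39.5, 68.5 and 6.85 CPM in Proline, with overlap through the third library. Ccl2, which draws monocytes, stood at 63.0, 53.8 and 86.6 CPM in Model and 172, 184 and 98.2 CPM in Proline. Among 16 checkpoint genes, 4 were higher without overlap (25%, against 8.77% of all genes). Cd274, which encodes PD-L1, stood at 15.3, 10.9 and 13.1 CPM in Model and 33.8, 65.3 and 11.9 CPM in Proline, a difference of 1.5 (SE 0.45, adjusted p = 0.229) with overlap. Cd80, a ligand of CD28 and CTLA-4, stood at 1.22 to 2.45 CPM in Model and 3.84 to 5.01 CPM in Proline, a difference of 1.41 (SE 0.29, adjusted p = 0.148).

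Cytotoxic and natural killer cell genes were higher in all 3 Proline libraries. Of 17 members, 10 were higher without overlap (58.8%) and none lower, with a median of 2.5. Their summed level was 9.73, 5.42 and 8.27 CPM in Model and 65.7, 52.5 and 29.9 CPM in Proline. It was 19.1, 15.2 and 28.1 CPM in Taurine, also above all Model libraries, and 111 to 121 CPM in Control. Gzma, a granzyme, stood at 1.14, 0.344 and 0.426 CPM in Model and 12, 7.46 and 2.55 CPM in Proline, a log2 difference of 3.52 (SE 0.63, adjusted p = 0.113). Prf1, the pore-forming perforin, stood at 0.258 to 0.910 CPM in Model and 1.58 to 2.29 CPM in Proline. Ncr1, an activating receptor of natural killer cells, stood at 0, 0 and 0.174 CPM in Model and 0.368 to 0.414 CPM in Proline. The list median depended on the scale: it was 0.61 with limma on log2(FPKM + 1), a scale that understates the change of genes near 0. T cell genes did not separate the groups in this way, with 1 of 16 members higher without overlap (6.25%, against 8.77% of all genes), Il2rb. Their summed level was 59.2, 28.1 and 15.7 CPM in Model and 99.6, 56.4 and 16.6 CPM in Proline, against 173 to 204 CPM in Control.

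Myeloid genes gave a mixed picture. Of 16 macrophage genes, 3 were higher (18.8%) and 2 lower (12.5%) without overlap, against 8.77% and 9.26% of all genes. Their median was −0.04, and their summed level was 3740 to 4229 CPM in Model and 3116 to 4016 CPM in Proline. The scavenger receptor Msr1 stood at 47.8 to 60.7 CPM in Model and 63.9 to 93.1 CPM in Proline. Cd163, the haemoglobin scavenger receptor, stood at 75.3, 56.7 and 41.2 CPM in Model and 4.29, 24.8 and 33.0 CPM in Proline, a log2 difference of −1.48 (SE 0.63, adjusted p = 0.345). Neutrophil genes had 1 of 11 members higher without overlap, near the 8.77% of all genes, with a median of 1.0: the growth factor receptor Csf3r, at 10.6 to 15.4 CPM in Model and 15.9 to 33.9 CPM in Proline. Their summed level was 111, 77.6 and 67.3 CPM in Model and 244, 197 and 55.8 CPM in Proline, and without Proline 3 the count was 7 of 11 (63.6%, against 16.3%). Of 17 NF-kB targets and inflammatory cytokines, 7 were higher without overlap (41.2%) and none lower, with a median of 0.55. Il1b, the inflammatory cytokine, stood at 7.32, 2.34 and 8.19 CPM in Model and 47.8, 36.1 and 13.2 CPM in Proline, a difference of 2.44 (SE 0.59, adjusted p = 0.181). Relb and Nfkb2, subunits of the alternative NF-kB pathway, differed by 0.58 (SE 0.17) and 0.40 (SE 0.14).

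**Figure D5:**
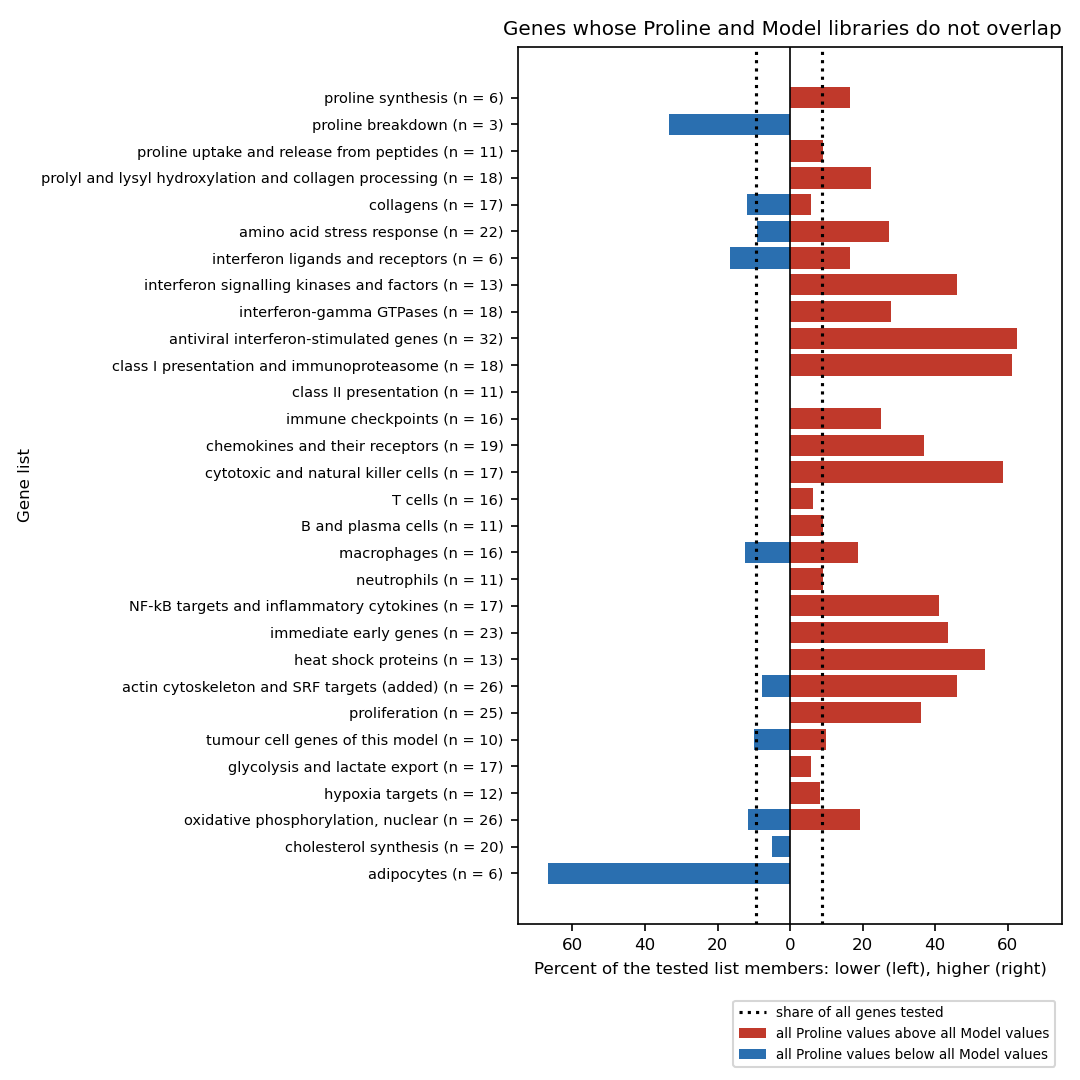
Percent of the tested members of a list whose 3 Proline libraries lie wholly above (right) or wholly below (left) the 3 Model libraries; dotted lines give the share among all genes tested, 8.77% and 9.26%. Among the lists plotted, which leave out the p200 genes, the antiviral, class I and cytotoxic lists reach furthest to the right, and adipocyte genes, with 4 of 6 lower, furthest to the left.

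Immediate early genes, which cells switch on within minutes of a stimulus without new protein, differed less in size but in all 3 Proline libraries. Of 23 tested, 10 were higher without overlap (43.5%) and none lower, against 8.77% and 9.26% of all genes. Their median was 0.41, with library medians of 0.50, 0.34 and 0.39. Egr1, a zinc finger factor, stood at 11.1, 11.5 and 10.4 CPM in Model and 27.7, 17.0 and 23.8 CPM in Proline. Fos, the partner of Jun in AP-1, stood at 16.3, 15.7 and 13.2 CPM in Model and 32.5, 22.9 and 22.9 CPM in Proline. Neither gene overlapped between the groups, and the third Proline library was not the lowest for Egr1. The log2 difference was 1.05 for Egr1 (SE 0.27, adjusted p = 0.196) and 0.79 for Fos (SE 0.22, adjusted p = 0.205). The nuclear receptor Nr4a1 stood at 0.65 (SE 0.17), while the zinc finger factor Klf4 stood at −0.33 (SE 0.20) with overlap. Control lung holds far more of these transcripts, with Fos at 370 to 434 CPM. Without Proline 1, the library with lung markers, 12 of the 23 were higher and 1 lower without overlap, against 14.3% and 14.9% of all genes.

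Actin cytoskeleton genes and targets of serum response factor were listed after Actg1, Cnn2 and Tagln2 had been seen. The count of this list is thus a description and no support. Of 26 members, 12 were higher (46.2%) and 2 lower (7.69%) without overlap, against 8.77% and 9.26% of all genes. Their median was 0.22. Srf, the factor itself, stood at 48.6, 49.7 and 54.6 CPM in Model and 63.1, 58.9 and 69.5 CPM in Proline, a log2 difference of 0.32 (SE 0.08, adjusted p = 0.177). Ccn1, a secreted matrix protein and a target of Srf and of YAP, stood at 33.4 to 37.7 CPM in Model and 53.7 to 81.1 CPM in Proline. The differences of Actb at 0.27 and of Tpm4, a tropomyosin, at 0.30 were of like size. Heat shock proteins had 7 of 13 members higher without overlap (53.8%), none lower, and a median of 0.29. Hsph1, a nucleotide exchange factor of Hsp70, stood at 61.2, 71.1 and 65.4 CPM in Model and 87.5, 86.1 and 115 CPM in Proline, a difference of 0.55 (SE 0.11, adjusted p = 0.123). Hspd1, the mitochondrial chaperonin, differed by 0.29 (SE 0.09) and the abundant Hsp90ab1 by −0.05 (SE 0.08) with overlap. With the covariate for liver and kidney transcripts the heat shock median was 0.12 and that of the immediate early genes 0.31.

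Growth and stress genes differed by small amounts. Proliferation genes had 9 of 25 members higher without overlap (36%), none lower, and a median of 0.12. Those higher were mostly genes of DNA replication: Mcm4, a subunit of the replicative helicase, stood at 99.7, 92.5 and 100.4 CPM in Model and 129, 117 and 113 CPM in Proline, and Pcna, the sliding clamp, at 181 to 213 and 223 to 265 CPM. Not all members followed: Mki67, a marker of cycling cells, stood at 249, 231 and 265 CPM in Model and 257, 244 and 252 CPM in Proline, and the cyclin Ccnb2 at 94.5 to 123 and 89.5 to 108 CPM. Among 22 genes of the amino acid stress response, 6 were higher (27.3%) and 2 lower (9.09%) without overlap, against 8.77% and 9.26% of all genes. Their median was 0.14. Cebpb, a stress and inflammation factor, stood at 57.7 to 82.3 CPM in Model and 98.7 to 118 CPM in Proline, a log2 difference of 0.69 (SE 0.15, adjusted p = 0.166). Chac1, which degrades glutathione, differed by 0.97 (SE 0.32), and Ddit4, an inhibitor of mTORC1, stood at 127 to 161 CPM in Model and 80.1 to 121 CPM in Proline.

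A list of 10 genes was taken as tumour cell genes because earlier results of these data showed them in tumour and not in Control. Of these, 1 was higher and 1 lower without overlap, 10% each, near the 8.77% and 9.26% of all genes. The median was −0.01. Myc stood at 384, 371 and 515 CPM in Model and 543, 641 and 560 CPM in Proline, a log2 difference of 0.46 (SE 0.14, adjusted p = 0.238) that was −0.01 with the liver and kidney covariate. Osr2, a developmental zinc finger factor, stood at 168, 147 and 171 CPM in Model and 80.5, 95.9 and 99.6 CPM in Proline, a difference of −0.82 (SE 0.16, adjusted p = 0.127). All Proline libraries lay far under Model for Osr2. Among 12 p53 targets and Cdk inhibitors, 4 were higher (33.3%) and 1 lower (8.33%) without overlap, against 8.77% and 9.26% of all genes. Mdm2, the p53 ubiquitin ligase, stood at 84.3 to 93.7 CPM in Model and 100.1 to 121 CPM in Proline, and Sesn1, a stress-induced inhibitor of mTORC1, at 49.5 to 65.4 and 35.2 to 44.4 CPM.

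The genes that make and use proline differed by small amounts. Of 6 synthesis genes 1 was higher without overlap (16.7%, against 8.77% of all genes), with a list median of 0.07. Aldh18a1, which starts synthesis from glutamate, stood at 126, 115 and 126 CPM in Model and 115, 140 and 122 CPM in Proline, a log2 difference of 0.04 (SE 0.10, adjusted p = 0.923). The reductases differed by 0.14 for Pycr1 (SE 0.32) and −0.02 for Pycr3 (SE 0.12), both with overlap. Oat, which makes the precursor from ornithine, stood at 96.6, 90.0 and 98.7 CPM in Model and 103, 100.2 and 104 CPM in Proline, a difference of 0.11 (SE 0.07, adjusted p = 0.584). The breakdown enzymes Prodh and Aldh4a1 differed by 0.11 (SE 0.17) and 0.21 (SE 0.20). Prodh2, a hydroxyproline dehydrogenase of liver and kidney, stood at 0.205 to 0.746 CPM in Model and 0 to 0.0614 CPM in Proline, beside higher liver or kidney sums in Model.

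Proline uptake and release from peptides had 1 of 11 members higher without overlap, which is near the 8.77% of all genes. That gene was Slc16a10, a transporter of aromatic amino acids, at 5.76 to 7.54 CPM in Model and 7.66 to 9.21 CPM in Proline. Slc38a2, a transporter of small neutral amino acids including proline, stood at 250, 276 and 252 CPM in Model and 289, 280 and 268 CPM in Proline, a log2 difference of 0.11 (SE 0.07, adjusted p = 0.519). Slc36a1, a proton-coupled exporter of small amino acids from lysosomes, differed by −0.20 (SE 0.10). The proline transporter Slc6a20a was at or under 0.229 CPM in Model and at 0.698, 0.0921 and 0 CPM in Proline. The taurine transporter Slc6a6 stood at 250 to 288 CPM in Model and 216 to 236 CPM in Proline, a difference of −0.21 (SE 0.08, adjusted p = 0.319).

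Of 18 enzymes and chaperones of collagen maturation, 4 were higher and none lower without overlap (22.2%), with a median of 0.02. Plod3, a lysyl hydroxylase, stood at 114, 108 and 118 CPM in Model and 146, 146 and 131 CPM in Proline, a log2 difference of 0.32 (SE 0.07, adjusted p = 0.148). P4ha3, an isoform of the prolyl hydroxylase, stood at 8.46 to 10.7 CPM in Model and 11.8 to 16.8 CPM in Proline, while the main isoform P4ha1 stood at 117 to 149 and 137 to 177 CPM with overlap. Collagens themselves had 1 of 17 higher (5.88%) and 2 lower (11.8%) without overlap, near the 8.77% and 9.26% of all genes. Col3a1, a fibrillar collagen, stood at 5628, 7424 and 6620 CPM in Model and 4147, 4157 and 5753 CPM in Proline, a difference of −0.48 (SE 0.22, adjusted p = 0.380). Col6a1 stood at 884, 826 and 864 CPM in Model and 668, 574 and 702 CPM in Proline, a difference of −0.40 (SE 0.12, adjusted p = 0.224), and Col6a2 differed by −0.46 (SE 0.17). Col1a1 stood at 139 to 164 CPM in Model and 141 to 202 CPM in Proline. Summed over the list, collagens stood at 10530 to 12233 CPM in Model and 8295 to 10314 CPM in Proline, so the sum was lower without overlap although the median of the members was 0.11. Mesenchymal transition genes had 2 of 16 higher and 2 lower without overlap, 12.5% each, near the 8.77% and 9.26% of all genes. S100a4, a calcium-binding protein of motile cells, stood at 605 to 699.8 CPM in Model and 410 to 550 CPM in Proline. The matrix protein Tgfbi stood at 177 to 205 and 214 to 353 CPM.

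Counts of the energy metabolism lists depended on single libraries. With all 6 libraries they are to be read against 8.77% of all genes higher and 9.26% lower without overlap. Glycolysis and lactate export had 1 of 17 members higher without overlap with all 6 libraries, Slc16a1, a lactate transporter, at 151 to 179 CPM in Model and 208 to 228 CPM in Proline, a log2 difference of 0.38 (SE 0.09, adjusted p = 0.177). Without Proline 3, 9 of the 17 were higher without overlap (52.9%, against 16.3% of all genes), and without Proline 1, 6 were lower (35.3%, against 14.9%). Hypoxia targets had 1 of 12 higher, Hif1a, at 194 to 213 and 221 to 273 CPM, and without Proline 1 they had 7 of 12 lower (58.3%). Nuclear oxidative phosphorylation genes had 5 of 26 higher (19.2%) and 3 lower, with Cycs, cytochrome c, at 72.6 to 88.7 CPM in Model and 104 to 121 CPM in Proline, a difference of 0.47 (SE 0.10, adjusted p = 0.148). Cholesterol synthesis had 1 of 20 lower, Mvd, and none higher. Adipocyte genes had 4 of 6 lower without overlap (66.7%, against 9.26% of all genes), with a median of −1.69. Their summed level was 32.0, 46.6 and 25.2 CPM in Model and 12.8, 19.7 and 21.8 CPM in Proline, and none of the 6 had an unadjusted p under 0.05.

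Proline was also set against the tumours treated with taurine, a contrast that uses the same Proline libraries. There edgeR called 10 genes (0.0431%), a count that was 0 without any 1 of the Model libraries, Proline 1, Proline 2 or Taurine 3, 1 without Taurine 2, 51 without Taurine 1 and 312 without Proline 3. Of the 24 genes named above, 6 were among them. Actg1 was at 1331, 1389 and 1208 CPM in Taurine, under all Proline libraries, a log2 difference of 0.56 (SE 0.07, adjusted p = 0.0421). Stx17 was at 75.3, 75.7 and 82.4 CPM in Taurine, above all Proline libraries, a difference of −0.50 (adjusted p = 0.0421). Tgfbr3 fell by 0.64, Dclk2 by 0.57, Trp53inp2 by 0.61 and Entpd4b by 0.66 relative to Taurine. The values against Taurine and against Model share the Proline libraries and are not independent. Interferon genes were not called in this contrast: the median of the 18 GTPases was 2.66 against Taurine and 2.99 against Model, and Tgtp1 stood at 3.30 against Taurine (adjusted p = 0.142). Cytotoxic genes stood at a median of 0.84 against Taurine, with Prf1 at 0.863, 2.31 and 2.87 CPM in Taurine and 1.58 to 2.29 CPM in Proline. Marco was at 18.2, 14.1 and 25.6 CPM in Taurine, overlapping with Proline, a difference of −0.21 (adjusted p = 0.787).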

How the data were processed

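RNA was extracted with an RNeasy kit and made into libraries with a SMARTer mRNA kit, per the labels' protocols, and sequenced from 12 samples. The authors deposited raw read counts per gene and FPKM values in 1 table, on genome build mm10 according to the submitters' processing notes. Which aligner and counter they used, and whether strand was used, is not given in the sources used here. Counts were analysed with edgeR 4.0.16 (filterByExpr, TMM scaling, quasi-likelihood test, 1 coefficient per group, 12 libraries in 1 fit) in R 4.3.3, with two-sided p-values adjusted by Benjamini-Hochberg over 23191 genes and a threshold of 0.05. Alternatives used DESeq2 1.42.0 and limma 3.58.1, the latter with voom and on the authors' deposited FPKM after log2(FPKM + 1). The test was checked on simulated counts.

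Totals were 56542745 to 69456490 counts per library. No pair of libraries of a group was identical within sampling noise. Of 665 list symbols, 663 were found. Levels are CPM on TMM library sizes with no correction for length, so they are compared between libraries and not between genes. A value without overlap is one where all 3 Proline libraries lie on 1 side of all 3 Model libraries.

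Named genes were the 12 per direction with the smallest p among genes without overlap at 1 CPM or more (predicted genes, mitochondrial genes and receptor segments left out), 2 members per direction of each list, and a fixed set. Genes and lists were chosen with earlier results of these data known. The genes named outside this rule, chosen after their values were seen, are Acaa1b, Actb, Aldh1l1, Atg13, Ccn1, Cgas, Chac1, Csf2, Cxcl10, Cxcl11, Cxcl9, Dennd1b, Eci3, Eif2ak3, Gart, Gbp2, Gbp5, Gtpbp4, Gzme, Idh1, Ido1, Ifi204, Irgm2, Mlkl, Mphosph10, Mthfd2, Ncr1, Nfkb2, Nr4a1, Oasl2, Pcna, Pold2, Pomp, Prf1, Prim1, Samd12, Snx20, Spmip6, Srf, Tpm4, Ttr and Wasf3. Fold changes against a group at 0 use a floor of 3 counts over the group and cover counting error only. Promoters are RefSeq windows of 250 bases. Replicate numbers follow the order of the samples and pair nothing. Some genes of the lists count in the list values and are not reported here by name.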

Additional observations from a re-analysis of the deposited data

Results flagged for a closer look

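The 10 genes below were called between Proline and Taurine by edgeR, at adjusted p between 0.0421 and 0.04997. This contrast sets the libraries of both treatments against each other directly, and its count fell to 0 under several of the alternatives given below. The 3 Proline libraries are those of the comparison with Model. Compared with Taurine, the log2 difference was 0.56 for Actg1, −0.57 for Dclk2, −0.66 for Entpd4b, −0.50 for Stx17, −0.64 for Tgfbr3 and −0.61 for Trp53inp2, genes whose levels are given above. The other 4 genes were not named before. Snx20, a sorting nexin of leukocytes, stood at 4.55, 3.12 and 3.22 CPM in Taurine and 8.96, 11.4 and 8.99 CPM in Proline, a difference of 1.43, and at 4.72 to 6.20 CPM in Model. Proline libraries lay above both other groups. Dennd1b, an exchange factor for Rab35, stood at 63.9, 67.3 and 69.5 CPM in Taurine and 45.2, 46.9 and 49.0 CPM in Proline, a difference of −0.51, and at 57.1 to 62.1 CPM in Model. Wasf3, an activator of actin branching, stood at 4.42, 3.75 and 2.87 CPM in Taurine and 0.940, 1.41 and 0.956 CPM in Proline, a difference of −1.74, with Model between both at 1.5 to 1.94 CPM. Spmip6, a sperm microtubule protein, stood at 0 to 0.0453 CPM in Taurine and 0.349 to 0.414 CPM in Proline, a difference of 3.61. It stood at 0.0474 to 0.0717 CPM in Model and 19.0 to 24.3 CPM in Control. The difference between the treatments thus lies among low levels.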

How the results depend on the processing

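For Proline against Model, the count of genes called was 0 with median-ratio, upper-quartile or no scaling, without a filter, with a stricter filter, in the 9 tumour libraries, in the 6 Proline and Model libraries, and with the covariate for liver and kidney transcripts. It was 769 with DESeq2, 22 with voom, 3 with limma on log2(FPKM + 1) and 4 on log2(FPKM + 0.1). Leaving out 1 library at a time gave 0 to 232, with 12 without Model 3 and 232 without Proline 3. Without Model 1 and Model 2 it was 1, an alternative chosen after seeing the data, as were those leaving out Taurine libraries and the counts of overlap without a library. For Proline against Taurine, 10 genes became 0 with median-ratio scaling, on log2(FPKM + 1), without a filter, in the 9 tumour libraries and with the covariate. They became 1 on log2(FPKM + 0.1), 47 with voom, 1075 with DESeq2 and 0 to 312 when 1 library was left out. The causes were not tested. Of 135 genes named, 125 kept the direction of Proline against Model under all 19 alternatives. Many were named for small p or after their values were seen, and the alternatives reuse these libraries, so this count is no support. With the covariate the sign turned for Aldh18a1 (−0.012), Aldh4a1 (−0.15), Col1a1 (−0.030), Mki67 (−0.14), Myc (−0.0067), Oat (−0.043) and Pycr1 (−0.34), and the medians of proline synthesis (−0.09) and collagens (−0.11) turned too. Mki67 was also −0.015 with upper-quartile scaling, −0.018 with no scaling, −0.010 on log2(FPKM + 1), −0.011 on log2(FPKM + 0.1) and −0.036 without Model 1 and Model 2. Slc36a1 was 0.028 without Model 1 and Model 2. Leaving out 1 library at a time gave values of both signs for Aldh18a1 (−0.046 to 0.10), Mki67 (−0.033 to 0.091), Pycr3 (−0.084 to 0.097) and Slc6a20a (−1.09 to 2.99). No paired analysis was possible because the labels give no replicate numbers that groups share. With 3 libraries a group, differences carried by 1 library, such as Proline 1 for class II genes, cannot be told apart from differences between groups, and genes with few counts have wide errors.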

Other observations

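Pathways that the deposited table assigns to genes (KEGG), with 15 to 300 tested genes, 315 in all, were read for members without overlap after the values were seen, so the 7 given here are a selection and carry no test. DNA replication had 16 of 36 members higher in Proline without overlap (44.4%) and none lower, against 8.77% and 9.26% of all genes, with a median log2 fold change of 0.19. Prim1, which lays down primers, stood at 32.5, 36.4 and 36.3 CPM in Model and 44.6, 40.7 and 45.8 CPM in Proline. Pold2, a subunit of DNA polymerase delta, stood at 61.1 to 64.9 CPM in Model and 69.9 to 74.8 CPM in Proline. The differences were small and all in 1 direction among the members without overlap. Ribosome biogenesis had 28 of 76 higher (36.8%) and 4 lower, with a median of 0.14. Gtpbp4, a GTPase of large subunit assembly, stood at 67.0 to 79.0 CPM in Model and 85.3 to 97.7 CPM in Proline, and Mphosph10, a part of the small subunit processome, at 28.9 to 30.5 and 35.4 to 40.5 CPM. The proteasome had 16 of 46 higher (34.8%) and none lower, with Pomp, a chaperone of its assembly, at 91.9 to 108 CPM in Model and 116 to 129 CPM in Proline. Any genes that this pathway shares with the class I and immunoproteasome list or the interferon lists were not taken out of its count. The one carbon pool by folate had 7 of 19 higher (36.8%) and 2 lower. Of these, Mthfd2, the mitochondrial folate enzyme, differed by 0.54 (SE 0.17) and Gart, an enzyme of purine synthesis, by 0.25, while Aldh1l1, a folate enzyme abundant in liver, differed by −1.26.

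On the lower side, peroxisome genes had 22 of 86 lower without overlap (25.6%) and 5 higher (5.81%), against 9.26% and 8.77% of all genes. Their median was −0.11. Idh1, the cytosolic and peroxisomal isocitrate dehydrogenase, stood at 120, 128 and 120 CPM in Model and 76.4, 93.7 and 97.3 CPM in Proline, a log2 difference of −0.46 (SE 0.08, edgeR adjusted p = 0.113). Acaa1b, a thiolase of peroxisomal fat oxidation, stood at 3.77 to 4.12 CPM in Model and 0.583 to 1.30 CPM in Proline. Liver and kidney are rich in peroxisomes, and the summed liver level was 306, 404 and 95.9 CPM in Model and 127, 104 and 95.4 CPM in Proline. Whether these transcripts bear on the peroxisome counts was not tested. Autophagy genes had 23 of 148 lower (15.5%) and 13 higher, with Eif2ak3, the stress kinase PERK, at 41.9 to 47.3 CPM in Model and 28.4 to 36.5 CPM in Proline, and Atg13, a part of the initiating kinase complex, at 52.4 to 59.1 and 44.3 to 48.9 CPM. The cytosolic DNA-sensing pathway had 20 of 65 higher (30.8%) and 3 lower (4.62%), with a median of 0.13. Genes that this pathway shares with the interferon lists were not taken out of its count.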
